A study of Mus musculus with 4 samples.

Results

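The list that names the genes described here was fixed with earlier results of these data known. It holds 31 members of cholesterol synthesis and handling, out of 26172 genes with a count in either of the 2 libraries analysed. They were measured in single cells from tumours of MC38, a mouse colon carcinoma line, grown in mice that were 10 weeks old when the cells were inoculated and were killed on day 20 without treatment. One library came from wild-type mice (WT) and one from FOXP3 humanized mice, and a Percoll gradient had been used to enrich both for infiltrating immune cells. The number of mice behind each library is not given in the labels, nor is how the human FOXP3 sequence was placed. Because there was 1 library of each genotype, the genotype, the tumour and the library cannot be told apart. No test of the genotypes was possible, and every 95% interval given reflects counting error alone.

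The members were read in deep cells, those with 5000 or more unique molecular identifiers (UMIs, each standing for 1 captured RNA molecule) and 0 UMIs of Cd3e, Cd3d, Cd3g and Ptprc. The rule kept 6705 of 7691 WT cells and 9671 of 11087 humanized cells, or 87.2% of each library. The deep cells held 129144384 UMIs in WT and 140575771 in humanized, with a median of 16866 and 12522 UMIs per cell. The samples are labelled as immune cells, but defining leukocyte markers were near 0 in these cells: 12 T cell markers outside the rule summed to 3.31 and 2.91 CPM in WT and humanized (a gene's UMIs scaled to a total of 1000000 per library), with Cd8a at 0 in both. The 10 macrophage markers summed to 6.13 and 5.59, mostly from Cd68, and the 5 B cell markers to 0.116 and 0.199. The rule had removed every cell with a UMI of Ptprc or of the CD3 genes, so low leukocyte markers are in part set by the rule. Epithelial markers were also low, at 5.84 and 3.10 for 8 genes, and 8 fibroblast markers summed to 176 and 215, led by Col1a2. The cells are therefore called deep cells. The libraries shared 1551 cell names, but the names are running numbers and not barcode sequences, so shared cells could not be counted.

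Cells build cholesterol from acetyl-CoA through mevalonate and farnesyl diphosphate, and then through squalene and lanosterol. When sterol in the endoplasmic reticulum is low, SCAP escorts the SREBP transcription factors to the Golgi, where they are cut and released to activate the synthesis genes, and INSIG proteins hold SCAP back when sterol is plentiful. Sterol excess is met through the liver X receptors (LXR), which switch on the exporters Abca1 and Abcg1 and the ubiquitin ligase Mylip.

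The sequences just before the starts of 5 members are shown because the synthesis genes varied together from cell to cell while Abca1 did not follow them. SREBP is known to act at promoters together with NF-Y and Sp1. Each stretch is the 250 bases before a RefSeq start in build GRCm38.p6, while the counts were made on GRCm39. Capitals mark the SREBP element core TCACNCCAC and the NF-Y box CCAAT, on either strand.
Hmgcs1, chr13:119690101-119690350, plus strand: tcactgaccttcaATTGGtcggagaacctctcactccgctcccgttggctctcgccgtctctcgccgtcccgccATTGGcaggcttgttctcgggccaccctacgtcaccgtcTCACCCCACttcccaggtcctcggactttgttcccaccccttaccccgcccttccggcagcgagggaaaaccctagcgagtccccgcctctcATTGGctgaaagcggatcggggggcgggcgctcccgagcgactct
Mvk, chr5:114444019-114444268, plus strand: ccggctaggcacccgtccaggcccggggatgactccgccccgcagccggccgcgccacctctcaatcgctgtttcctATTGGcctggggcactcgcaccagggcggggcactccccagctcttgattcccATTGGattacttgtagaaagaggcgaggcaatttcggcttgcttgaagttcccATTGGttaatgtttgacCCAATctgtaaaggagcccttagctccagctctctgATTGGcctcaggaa
Nsdhl, chrX:72918271-72918520, plus strand: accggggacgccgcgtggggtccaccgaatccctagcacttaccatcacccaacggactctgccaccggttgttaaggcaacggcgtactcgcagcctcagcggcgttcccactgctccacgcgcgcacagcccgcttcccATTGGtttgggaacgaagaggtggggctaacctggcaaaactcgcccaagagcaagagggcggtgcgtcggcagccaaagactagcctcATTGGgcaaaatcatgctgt
Srebf2, chr15:82147019-82147268, plus strand: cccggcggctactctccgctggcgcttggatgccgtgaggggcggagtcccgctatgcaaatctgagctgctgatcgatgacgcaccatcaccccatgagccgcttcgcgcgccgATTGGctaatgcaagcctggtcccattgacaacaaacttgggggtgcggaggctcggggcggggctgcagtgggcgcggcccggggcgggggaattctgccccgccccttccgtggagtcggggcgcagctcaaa
Abca1, chr4:53159896-53160145, minus strand: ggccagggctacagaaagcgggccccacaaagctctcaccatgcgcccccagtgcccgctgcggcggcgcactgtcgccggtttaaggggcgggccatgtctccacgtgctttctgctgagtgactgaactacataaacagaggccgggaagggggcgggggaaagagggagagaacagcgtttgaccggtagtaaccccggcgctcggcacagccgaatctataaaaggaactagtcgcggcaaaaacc
The Hmgcs1 stretch held the SREBP core once, its first base 137 bases before the start, and the NF-Y box 3 times. The Mvk stretch held 5 NF-Y boxes, the Nsdhl stretch 2 and the Srebf2 stretch 1. The Abca1 stretch held neither motif in these letters. The NF-Y box occurred before a start of 14 of the 15 synthesis genes with an entry, all but Acat2, against 37.5% of all 27025 genes in the table. The Sp1 box GGGCGG also occurred in 14 of 15, against 35.4% of all genes. Neither box was particular to the synthesis genes, since 25 of the 31 members had an entry and 22 of these held the NF-Y box and 22 held the Sp1 box. Insig2, Ggps1, Npc2, Soat1 and Mylip, which did not follow the synthesis sum, also held the NF-Y box. The exact SREBP core was found in 1 of 15, against 1.22% of all genes, and the E-box CACGTG in 3 of 15, against 6.86%. A gene counted once if any of its starts had a match on either strand; overlaps with other motifs were allowed.

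On the CPM scale the synthesis genes were higher in the humanized library along nearly the whole pathway. Most control, transport and export genes had log2 ratios under 0.322 on this scale. The 18 synthesis genes together held 714 CPM in WT and 1085 in humanized deep cells, a log2 ratio of 0.60 (0.59 to 0.62). Their median log2 ratio was 0.63, or 1.55-fold higher, whereas the median over the 13730 genes with at least 100 UMIs was -0.21. A gene at the median of all genes was thus 0.864 times as high in humanized cells, while the 85 ribosomal protein genes took 33.5% of WT and 35.6% of humanized UMIs. Among the 30 members that reached 100 UMIs, 17 had a log2 ratio of 0.322 or more, against 2.00% of all genes, and 1 had a log2 ratio of -0.322 or less, against 34.0%. At 1.5-fold, 11 members were higher, against 0.641% of all genes, and 1 was lower, against 12.9%. Because the list was fixed with earlier results of these data known, these counts and those below describe it and test nothing. Scaling the libraries to the median gene (DESeq2 size factors) placed 16 members at least 1.5-fold higher and 0 lower. This scaling raised the log2 ratio of every gene, so the shares of all genes given above do not apply to it. Its own shares are not given here, and the rise from 11 to 16 is not a result about the members.

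All 7 genes from acetyl-CoA to farnesyl diphosphate had a log2 ratio of 0.322 or more, and their summed level was 415 CPM in WT and 662 in humanized. Acat2, the thiolase that opens the pathway, had 17.5 CPM in WT and 34.9 in humanized, a log2 ratio of 1.00 (0.93 to 1.07). Acat2 had the highest ratio of the 31 members. Its near-identical neighbour Acat3 had 1.32 and 0.875 CPM, so few reads were assigned to the copy, and how shared reads were treated is not given in the sources used here. Hmgcs1, which makes HMG-CoA, stood at 48.0 and 79.2, a log2 ratio of 0.72 (0.68 to 0.77). Mvd, the decarboxylase that forms isopentenyl diphosphate, stood at 20.8 and 38.7, a log2 ratio of 0.90 (0.83 to 0.97). Mvk and Pmvk, the kinases between them, had log2 ratios of 0.65 and 0.53, and Idi1, the isomerase, 0.72. The farnesyl diphosphate synthase Fdps supplied the most UMIs of the synthesis genes, 34487 in WT and 58015 in humanized. Its level was 267 and 413 CPM, a log2 ratio of 0.63 (0.61 to 0.65). Counting error at this depth was small for these genes, so the intervals of all 7 lie well above the median gene.

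Among the 11 genes from squalene to cholesterol, 8 had a log2 ratio of 0.322 or more, and the summed level was 298 CPM in WT and 423 in humanized. Fdft1, which makes squalene, stood at 53.6 and 89.7, a log2 ratio of 0.74 (0.70 to 0.79). Nsdhl, which acts in the removal of methyl groups from the sterol ring, stood at 12.6 and 23.7, a log2 ratio of 0.91 (0.82 to 0.99). Nsdhl followed Acat2 in ratio, with an interval that overlaps that of Mvd. Cyp51, the lanosterol demethylase, stood at 38.4 and 63.3, a log2 ratio of 0.72. Sqle, the squalene epoxidase, had a ratio of 0.64 and Lss, the lanosterol synthase, of 0.48. Msmo1, Hsd17b7 and Sc5d, which act later, had ratios of 0.47, 0.41 and 0.35. The remaining 3 genes were near equal in the libraries on this scale. Tm7sf2, a sterol reductase, stood at 17.2 CPM in WT and 16.7 in humanized, a log2 ratio of -0.04 (-0.12 to 0.05), which became 0.17 under DESeq2 size factors. Ebp, a sterol isomerase, stood at 42.8 and 44.1, a log2 ratio of 0.04 (-0.01 to 0.10). Dhcr7, the last reductase of one arm, stood at 11.9 and 13.4, a log2 ratio of 0.16 (0.06 to 0.26). All 3 lay above the median gene. Tm7sf2 shares exon sequence with Vps51 on the same strand, and Fdft1, Cyp51, Ggps1, Srebf1 and Npc1 overlap Ctsb, Akap9, Arid4b, Rai1 and Rmc1 on the opposite strand; whether counting used strand is not given in the sources used here.

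The control genes did not move as a group, and Insig1 stood apart from its relatives. Insig1, which is itself an SREBP target, had 13.5 CPM in WT and 22.9 in humanized, a log2 ratio of 0.76 (0.68 to 0.85). Insig2, its paralogue, had 33.3 and 28.7, a log2 ratio of -0.22 (-0.28 to -0.15), which is the value of the median gene. The 2 INSIG genes therefore differed between the libraries in opposite directions on the CPM scale, and under DESeq2 size factors Insig2 was at -0.01. Srebf2, which encodes the SREBP directed mainly at cholesterol genes, stood at 70.1 and 87.3, a log2 ratio of 0.32 (0.28 to 0.36), just short of 0.322. Under DESeq2 size factors Srebf2 was at 0.53, above 0.322. Srebf1, whose product is directed more at fatty acid genes, stood at 17.96 and 18.87, a log2 ratio of 0.07 (-0.01 to 0.15). With DESeq2 scaling Srebf1 was at 0.28. Scap stood at 11.5 and 10.4, a log2 ratio of -0.15 (-0.25 to -0.04), and it was at 0.06 under DESeq2 size factors. Ggps1, which draws farnesyl diphosphate off towards protein prenylation, was at 30.3 and 25.6, a log2 ratio of -0.24 (-0.31 to -0.18).

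Of the transport and storage genes, Stard4 was the member that resembled the synthesis genes. Stard4, a soluble sterol carrier, stood at 8.11 CPM in WT and 12.1 in humanized, a log2 ratio of 0.57 (0.46 to 0.69), just short of 1.5-fold. Npc1 and Npc2, which pass cholesterol out of the lysosome, had log2 ratios of 0.01 (-0.10 to 0.12) and 0.16 (0.15 to 0.17). Under DESeq2 size factors they were at 0.22 and 0.37, so Npc2 was then above 0.322. Npc2 alone held 519 and 580 CPM. Soat1, which esterifies cholesterol for storage, stood at 29.8 and 26.4, a log2 ratio of -0.17 (-0.24 to -0.11), and it was at 0.04 under DESeq2 size factors.

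The export genes had low counts. Abca1 had 472 UMIs in WT and 313 in humanized deep cells, or 3.65 and 2.23 CPM, a log2 ratio of -0.71 (-0.93 to -0.51). It was the only one of the 30 members with a log2 ratio of -0.322 or less, and the only one at least 1.5-fold lower. Relative to the median gene the difference was smaller, with a log2 ratio of -0.50 under DESeq2 size factors, and it was then not 1.5-fold lower. Macrophages are known to express Abca1, and the macrophage markers were at 6.13 and 5.59 CPM. Cd68 alone held 4.93 and 4.62 of these, while Csf1r had 9 and 3 UMIs and Adgre1 1 and 2. The part of macrophages in the Abca1 difference was not tested. Abcg1 had 20 and 18 UMIs, a log2 ratio of -0.27 (-1.28 to 0.72), so a difference was not detectable at this depth. Mylip stood at 5.76 and 4.78 CPM, a log2 ratio of -0.27 (-0.42 to -0.12), close to the median gene and at -0.06 under DESeq2 size factors.

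**Figure D1:**
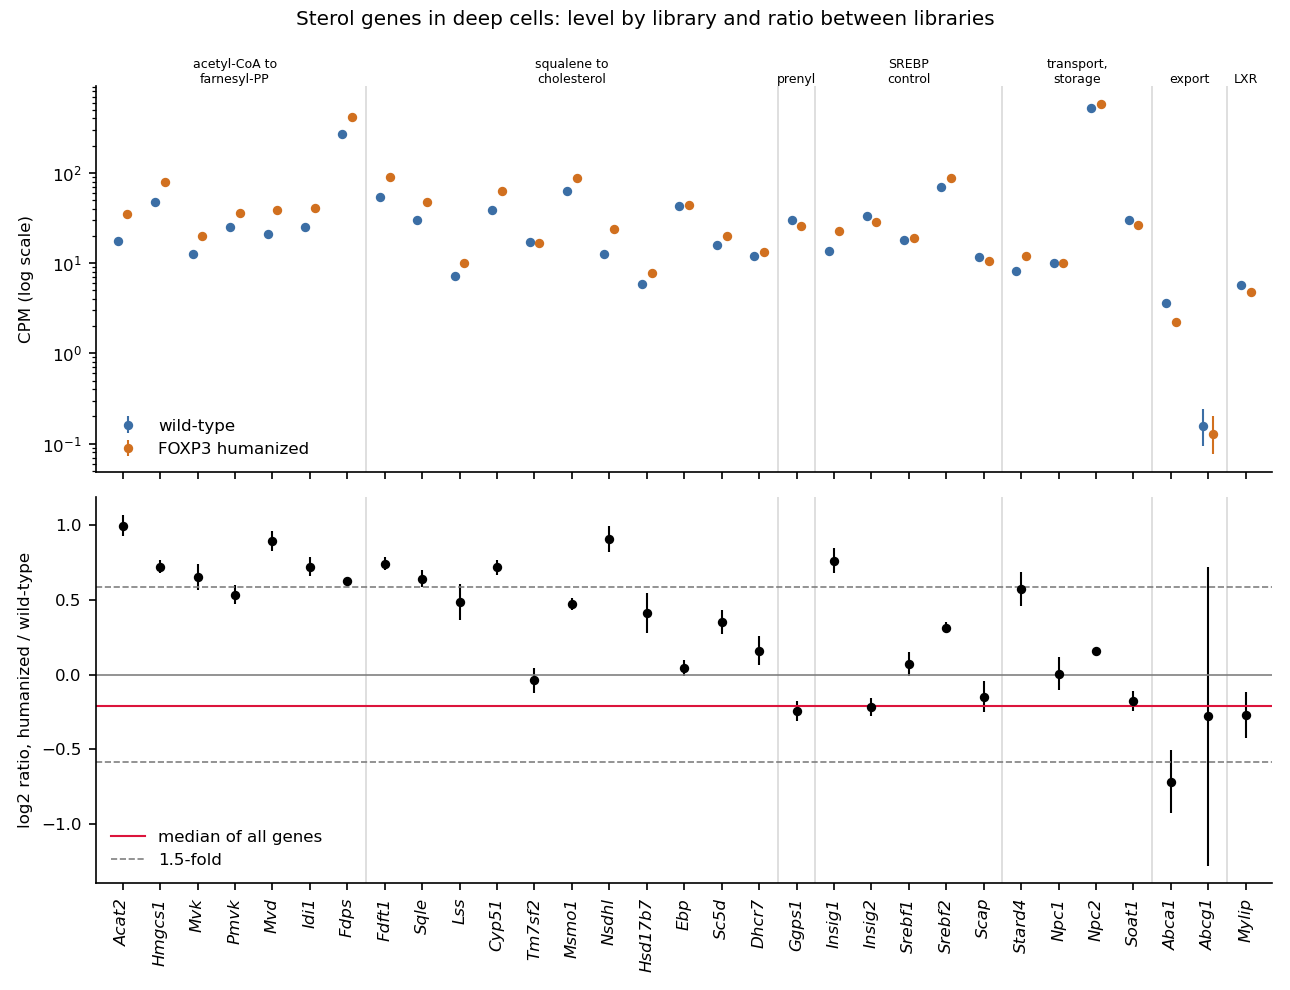
Top, CPM in deep cells of WT (blue) and FOXP3 humanized (orange) for each of the 31 members, on a log axis; bottom, the log2 ratio of humanized to WT, with 95% counting intervals. Most synthesis genes sit above the dashed 1.5-fold line or close to it, Insig1 and Stard4 sit with them, and Abca1 lies below the red line at the median of all genes, -0.21.

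The difference was also present in shallow cells. In shallow cells, with under 5000 UMIs and 0 UMIs of the same 4 genes, the synthesis genes held 756 CPM in 770 WT cells and 1173 in 1030 humanized cells, a log2 ratio of 0.63 (0.55 to 0.72). In cells with 2 or more CD3 UMIs they held 382 in 105 WT cells and 849 in 188 humanized cells, a log2 ratio of 1.15 (0.93 to 1.38). However, 21 of these WT cells and 54 of the humanized cells had 5000 or more UMIs, and they held 70.3% and 76.1% of the UMIs. In the remaining 84 and 134 cells the synthesis genes had 60 and 99 UMIs, or 371 (283 to 477) and 420 (341 to 511) CPM, a log2 ratio of 0.18 (-0.30 to 0.67). A difference between the libraries was therefore not detectable in CD3 cells under 5000 UMIs. In both libraries these cells were lower in synthesis genes than the deep cells, which stood at 714 and 1085. Fibroblast markers had 3 and 9 UMIs in them, or 18.5 and 38.1 CPM. Abca1 in shallow cells had 18 UMIs in WT and 6 in humanized, or 8.36 (4.96 to 13.2) and 1.94 (0.714 to 4.23) CPM.

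To compare cells at equal depth, each deep cell was thinned at random to 5000 UMIs and the UMIs of the 18 synthesis genes were added up as its synthesis sum. The sum was higher in the humanized library at the median and the 95th percentile, and in both libraries it was spread more widely than counting alone gives. Its mean was 3.46 UMIs per cell in WT and 5.20 in humanized, its median 2 and 4, and its 95th percentile 12 and 16. The highest single cell held 44 in WT and 43 in humanized, and 1 cell does not describe the upper tail. The variance was 4.41 times the mean in WT and 5.11 times in humanized, where independent counting gives a ratio of 1. Cells with 16 or more UMIs made up 2.04% of WT cells (1.72% to 2.41%, exact binomial) and 5.15% of humanized cells (4.72% to 5.61%). Cells with 0 made up 14.3% and 8.74%. The 10% of cells with the highest sums held 36.9% of the synthesis UMIs in WT and 32.8% in humanized. Fdps had the widest spread of any single member, with a variance of 3.00 and 3.15 times its mean, against a median of 1.22 and 1.21 for genes in the same decile of level. For Hmgcs1 the ratios were 1.45 and 1.44, against 1.06 and 1.08. Ebp, at 1.05 and 1.04, was no more variable than other genes of its level, 1.06 and 1.06.

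**Figure D2:**
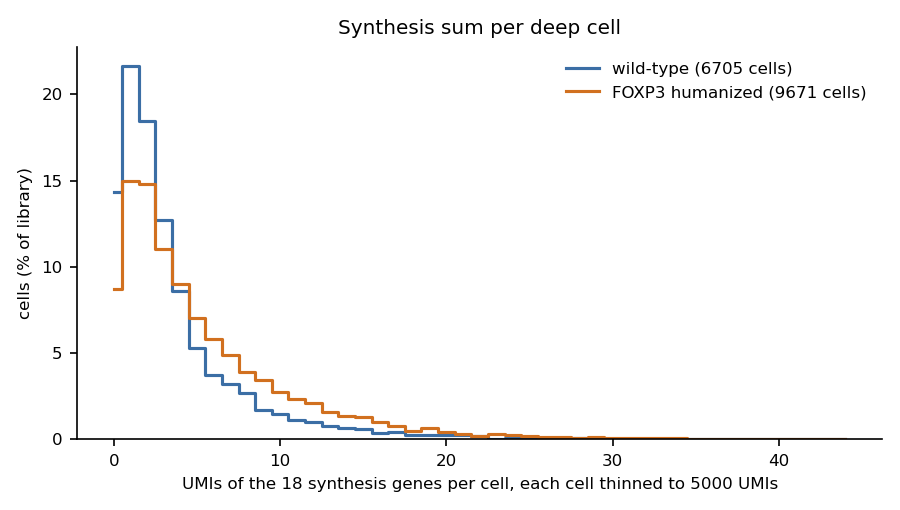
Distribution of the synthesis sum, the UMIs of the 18 synthesis genes in each deep cell after thinning to 5000 UMIs, as percent of the cells of WT (blue) and FOXP3 humanized (orange). The median is 2 UMIs in WT and 4 in humanized, and both libraries have a long right tail that ends at 44 and 43 UMIs.

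The synthesis genes varied together from cell to cell in both libraries. Of the 153 pairs among the 18 genes, 149 had a positive Pearson correlation in WT, 153 in humanized, and 149 in both. The median r was 0.056 in WT and 0.080 in humanized, over 6705 and 9671 cells that share a library and have few UMIs per gene. The highest pair in WT was Fdps with Msmo1, at 0.35, and the highest in humanized was Fdps with Mvd, at 0.38. The libraries gave the pairs a like order, with a correlation of 0.94 across the 153 pairs, which share genes. With few UMIs per gene the size of r also depends on gene level. The part of gene level in this order was not tested. Srebf2 was positive with 18 of 18 synthesis genes in both libraries, Insig1 with 16 in WT and 18 in humanized, and Stard4 with 17 and 18. Srebf1 was positive with 14 and 11, Mylip with 5 and 2, and Abca1 with 2 and 1. Abcg1 was positive with 4 in WT and 11 in humanized, on few UMIs. Each of these single pairs is weak and is given only as a description. The share of positive pairs among all genes is not given here. A positive sign alone is not particular to these genes. Over 9384 genes with a mean of at least 0.02 thinned UMIs per cell, the median r with the synthesis sum was 0.013 in WT and 0.015 in humanized.

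**Figure D3:**
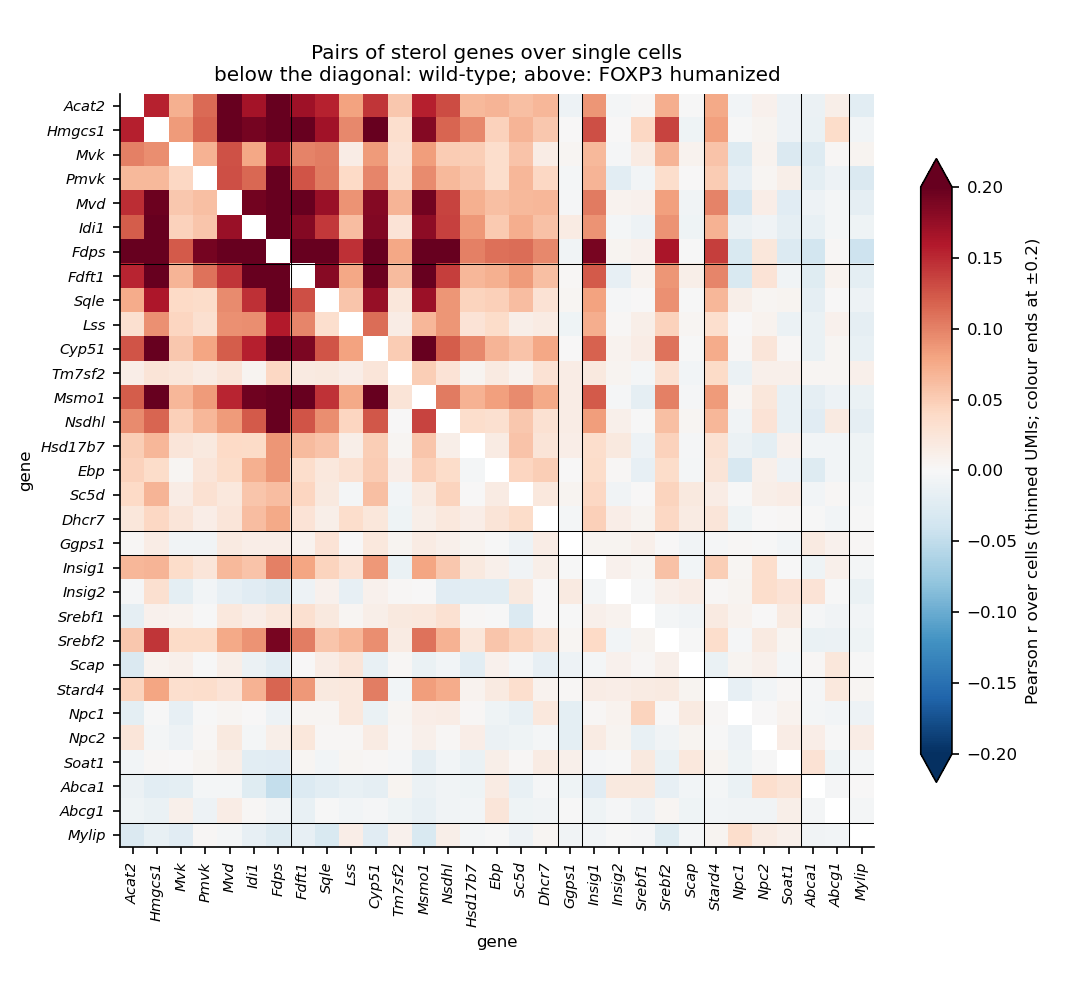
Pearson correlation over deep cells between thinned counts of every pair of members, WT below the diagonal and FOXP3 humanized above it, with colour ending at 0.2 in size. The block of synthesis genes at the upper left is red in both libraries, joined by the lines for Insig1, Srebf2 and Stard4, and the lines for Abca1 and Mylip are mostly pale or blue.

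Each gene was then set against the sum of the synthesis genes other than itself. Of the 18 synthesis genes, 17 had r of at least 0.05 in both libraries, and so did 20 of the 29 members with a mean of at least 0.02 thinned UMIs per cell, against 9.88% of 9384 such genes. Tm7sf2 was the synthesis gene left out, at 0.045 in WT and 0.093 in humanized. The 3 other members were Insig1, Srebf2 and Stard4. The cells at or above the 75th percentile of the sum were compared with those at or below the 25th within each library, here called high-sum and low-sum cells. For genes outside the synthesis list the sums were 4 to 44 in 2203 WT cells against 0 to 1 in 2414, and 7 to 43 in 2771 humanized cells against 0 to 2 in 3724. For each synthesis gene, left out of its own sum, there were 2006 to 2184 high-sum and 2436 to 3411 low-sum cells in WT, and 2493 to 3278 and 2422 to 3880 in humanized. A level at least 2-fold higher in the high-sum cells of both libraries was found for 17 of the 29 members, 15 of them synthesis genes, against 0.480% of all genes. The median log2 fold of the synthesis genes was 1.74 in WT and 2.22 in humanized, against 0.16 and 0.20 for all genes.

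Idi1 had the widest contrast between high-sum and low-sum cells of the 31 members in both libraries, with a log2 fold of 2.58 in WT and 2.88 in humanized. Acat2 was 5.34-fold and 6.63-fold higher, and Hmgcs1 4.45-fold and 6.36-fold. Among the later enzymes Nsdhl was 5.28-fold and 4.72-fold higher and Cyp51 4.50-fold and 6.05-fold. Fdps, with the most counts, was 4.06-fold and 4.57-fold higher, with r of 0.57 and 0.61. The contrast was narrowest for Tm7sf2 and Ebp, with Ebp 1.53-fold and 1.81-fold higher and Tm7sf2 1.41-fold and 1.83-fold. Sc5d was 1.65-fold and 2.75-fold higher, so it passed 2-fold in humanized only, which was not tested as a difference. The 3 genes with the lowest ratios between the libraries, Tm7sf2, Ebp and Dhcr7, were thus also among those with low folds between high-sum and low-sum cells, Dhcr7 at 2.14 and 2.76.

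Among the control genes Srebf2 followed the synthesis sum, 2.12-fold higher in high-sum cells in WT and 2.16-fold in humanized. Insig1 was 1.73-fold higher in WT and 4.09-fold in humanized, with log2 intervals of 0.48 to 1.11 and 1.80 to 2.27. The WT value depended on the random draw of UMIs, since a second draw gave a log2 fold of 1.40 in WT and 2.09 in humanized. Insig2 was at 0.881 and 1.03 times, Scap at 0.846 and 1.07, and Srebf1 at 1.27 and 1.07. Thus the paralogues in both families parted, Insig1 from Insig2 and Srebf2 from Srebf1. Stard4 was 4.58-fold and 3.98-fold higher, in the range of the synthesis genes. Npc1 was at 0.990 and 0.747 times, Npc2 at 0.967 and 1.04, Soat1 at 0.965 and 0.903, and Ggps1 at 1.21 and 1.06.

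**Figure D4:**
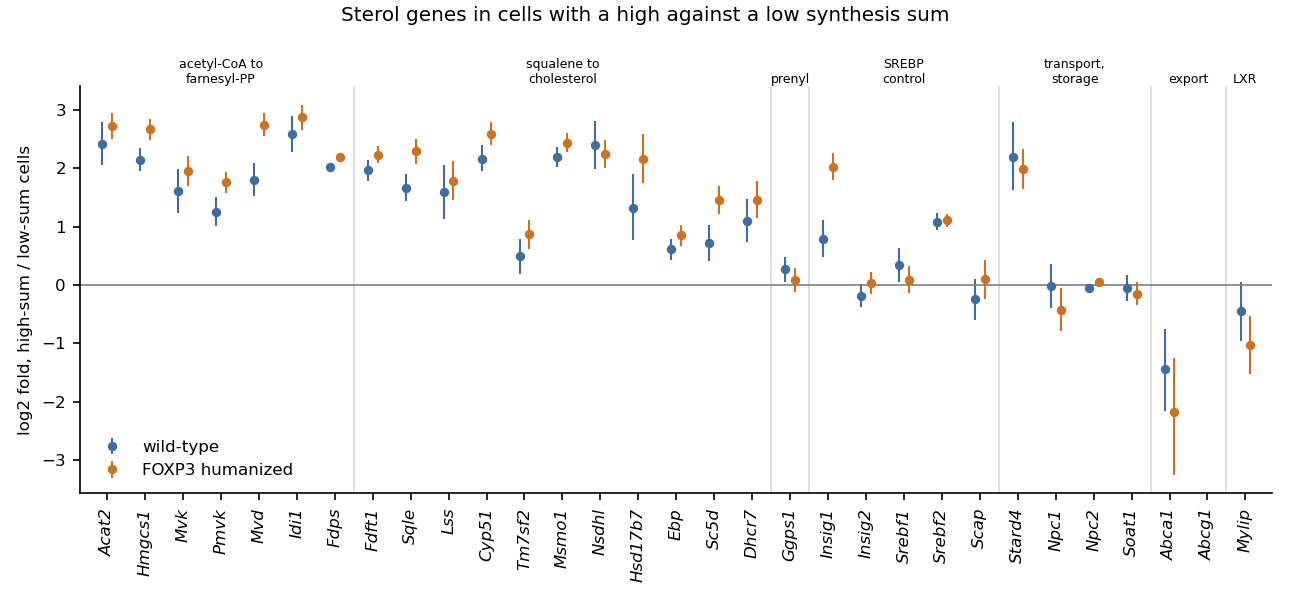
Log2 fold of the mean thinned UMIs of each member in high-sum against low-sum cells, by the sum of the other synthesis genes, in WT (blue) and FOXP3 humanized (orange), with 95% counting intervals; Abcg1 had too few UMIs to plot. Synthesis genes, Insig1, Srebf2 and Stard4 lie above 0, and Abca1 lies at -1.43 and -2.18.

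Abca1 went the other way, with r against the sum of -0.043 in WT and -0.041 in humanized, both under 0.05 in size. The high-sum cells held 24 thinned UMIs and the low-sum cells 71 in WT, and 11 and 67 in humanized. The mean level in high-sum cells was 0.370 times that in low-sum cells in WT, a log2 fold of -1.43 (-2.17 to -0.75), and 0.221 times in humanized, -2.18 (-3.25 to -1.25). A level at least 2-fold lower in both libraries was found for 0.655% of the 13730 genes with 100 UMIs, and Abca1 was the only one of 30 members. Mylip, the other LXR-responsive member with enough counts, was at 0.735 times in WT, a log2 fold of -0.44 (-0.95 to 0.06), and at 0.492 times in humanized, -1.02 (-1.53 to -0.53). The folds of Abca1 rest on few UMIs, and a second draw gave -1.15 and -1.50. Leaving Fdps out of the sum moved the WT value to -0.66, which is under 2-fold.

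Across 5 groups of cells in rising order of the sum, Abca1 had 29.4, 18.6, 22.3, 11.8 and 10.2 thinned UMIs per 1000 cells in WT. In humanized it had 19.6, 13.2, 10.97, 4.27 and 3.63. The lowest group was thus the highest for Abca1 in both libraries, and the intervals of the lowest and the highest group did not overlap. Mylip had 35.2, 37.2, 31.7, 39.7 and 15.7 in WT and 34.1, 36.4, 20.0, 15.7 and 19.2 in humanized, with no steady order, but here too the intervals of the lowest and the highest group did not overlap in either library. Insig1 had 57.6, 46.9, 54.1, 71.9 and 120 in WT and 48.4, 64.4, 94.9, 143 and 240 in humanized. The libraries were close for Insig1 in cells of low sum and apart in the highest group, whose sums were 6 to 44 in WT and 9 to 43 in humanized. These values come from the main draw of UMIs, and the WT fold of Insig1 depended on the draw. Abcg1 had at most 5 thinned UMIs in any group, so no order could be read.

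**Figure D5:**
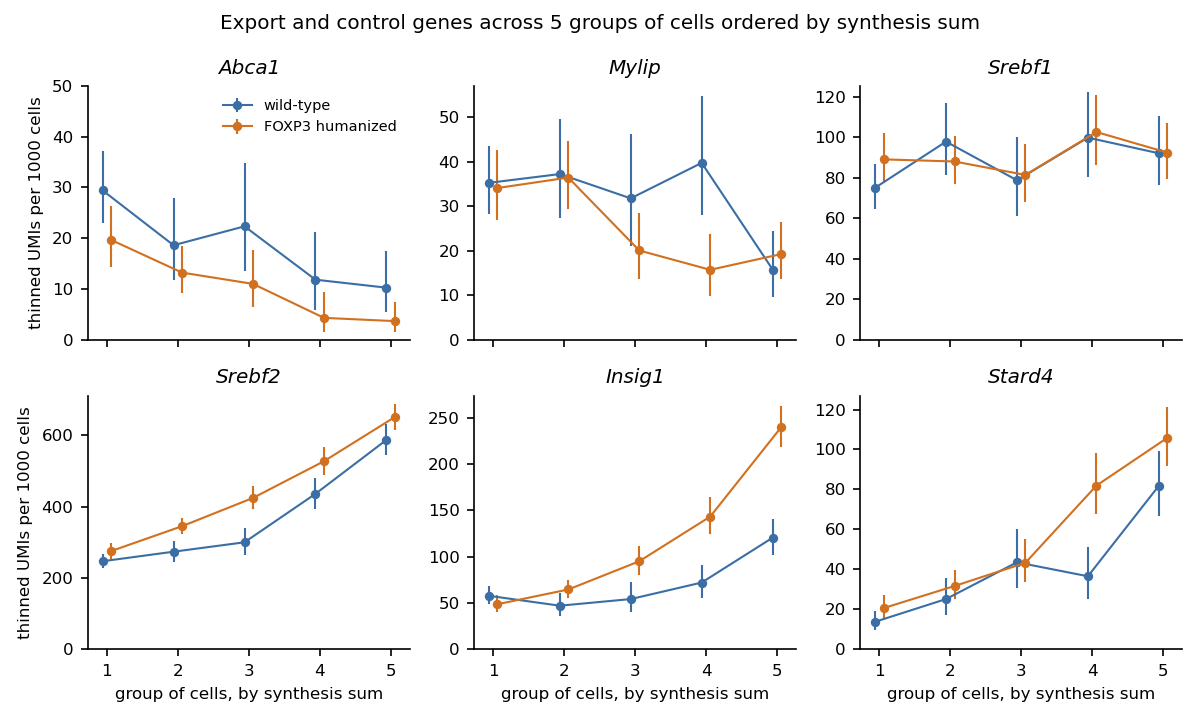
Thinned UMIs per 1000 cells of Abca1, Mylip, Srebf1, Srebf2, Insig1 and Stard4 in 5 groups of deep cells ordered by synthesis sum, in WT (blue) and FOXP3 humanized (orange), with exact Poisson intervals. Abca1 runs from 29.4 to 10.2 in WT and from 19.6 to 3.63 in humanized, Srebf1 is level, and Srebf2, Insig1 and Stard4 are highest in the last group.

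Abca1 was found in few cells, 126 in WT and 102 in humanized after thinning, and no deep cell held more than 4 UMIs of it before thinning. Cells with an Abca1 UMI had a mean synthesis sum of 2.17 in WT and 3.17 in humanized, against 3.49 and 5.23 in cells without. Macrophage markers had 8 UMIs in all in the WT cells with Abca1 and 5 in the humanized ones, or 0.063 and 0.049 per cell, against 0.033 and 0.026 without. Their fibroblast marker sum was 1.17 and 1.58, against 0.943 and 1.09. Their S-phase sum was 4.63 and 4.53, against 6.06 and 5.36, and their G2/M sum 4.75 and 5.58, against 7.03 and 6.96. Cells with Abca1 thus had more fibroblast and fewer cell cycle UMIs, the macrophage UMIs were too few to compare, and the part of each in the result was not tested. In cells at or below the median cell cycle sum the log2 fold of Abca1 was -1.53 in WT and -2.54 in humanized. Without the 5% of cells highest in fibroblast markers the log2 fold of Abca1 was -1.30 in WT and -2.29 in humanized.

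Other measures moved with the synthesis sum as well. Ribosomal protein genes took 31.2% of the UMIs of high-sum cells and 36.3% of low-sum cells in WT, and 32.4% and 39.4% in humanized. The 30 S-phase genes summed to 7.11 UMIs per thinned cell against 5.12 in WT and 6.63 against 4.33 in humanized. The 30 G2/M genes summed to 8.40 against 5.94 and 8.23 against 5.85. Fibroblast markers summed to 1.04 against 0.849 in WT and 1.30 against 0.924 in humanized. Macrophage markers went the other way, at 0.028 against 0.039 and 0.016 against 0.034, and their part in the Abca1 fold was not tested. Endothelial markers were at 0.096 against 0.073 and 0.084 against 0.049, and epithelial markers at 0.012 against 0.062 in WT and 0.018 against 0.015 in humanized. The median depth before thinning was 18394 UMIs against 15479 in WT and 13486 against 11516 in humanized. Given ribosomal UMIs, the cell cycle sum and depth, the partial r of Fdps with the sum was 0.53 in WT and 0.56 in humanized, and that of Srebf2 was 0.19 and 0.16. Under this adjustment 20 members had r of at least 0.05 in both libraries, and the share of all genes under it is not given here. The partial r of Abca1 was -0.032 and -0.033. Soat1 at -0.037 and -0.043, Insig2 at -0.036 and -0.032, and Mylip at -0.034 and -0.036 were alike, so Abca1 did not stand apart on this measure.

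Of the neighbouring lipid lists, the fatty acid genes followed the synthesis sum most often. Of 13 fatty acid synthesis genes with enough counts, 8 had r of at least 0.05 in both libraries, against 9.88% of all genes, and 11 had a log2 fold of 0.322 or more between high-sum and low-sum cells in both, against 19.3%. Elovl6, an elongase, was 3.20-fold higher in WT and 4.59-fold in humanized. Fads2 and Scd2, desaturases, were 2.34-fold and 2.35-fold higher in WT and 3.35-fold and 3.21-fold in humanized. Fasn, the fatty acid synthase, was 1.64-fold and 2.33-fold higher, whereas Scd1 was at 0.851 and 1.07 times. Between the libraries the 14 fatty acid genes had a median log2 ratio of 0.26, with 4 at 0.322 or more, against 2.00% of all genes, and 0 at -0.322 or less, against 34.0%. Of 19 other sterol genes, 3 had r of at least 0.05 in both libraries, against the same 9.88%, which on so few genes is not a result about the list. They were Tmem97, which regulates NPC1, at 2.03-fold and 2.53-fold, Erg28, a scaffold of sterol enzymes, at 1.88-fold and 2.14-fold, and the lipoprotein receptor Scarb1 at 1.68-fold and 2.27-fold. Of 10 prenylation genes, 1 had r of at least 0.05 in both, Fnta, at 1.28-fold and 1.43-fold, a share close to that of all genes. The median log2 ratio between the libraries was -0.07 for the 21 other sterol genes measured and -0.13 for the prenylation genes, so neither stood out as the synthesis genes did.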

How the data were processed

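Single cells of MC38 tumours were profiled by droplet RNA sequencing (DNBelab C), per the labels' protocols. The deposited matrices hold UMI counts per gene and cell, written by PISA 1.0 per the file headers. The submitters' processing notes name the build GRCm39. The sources used here do not name the aligner, annotation or cell calling. The oligo libraries were not analysed here. Depth was 134214718 UMIs in 7691 WT cells and 147738781 in 11087 humanized cells.

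UMIs were summed over deep cells and scaled to CPM. Poisson and conditional binomial intervals were exact. Ratios use genes with 100 or more UMIs in all, with a floor of 3 counts for a sum of 0. For co-variation each cell was thinned without replacement to 5000 UMIs (seed 1), and genes needed a mean of 0.02. Calculations used Python 3.11.15, numpy 2.4.6, scipy 1.17.1 and pandas 2.3.3. Scaling alternatives used edgeR 4.0.16 (TMM) and DESeq2 1.42.0 in R 4.3.3. The steps were tested on simulated data. Named genes were all 31 members, up to 6 genes each way of the neighbouring lists by fold between high-sum and low-sum cells, and up to 10 of the 15 other genes most correlated with the synthesis sum, leaving out mitochondrial, ribosomal protein and predicted genes. Members and lists were chosen with earlier results of these data known. Alternatives covered depth, scaling, cell weighting, the thinning draw, the form of the sum, cell cycle and fibroblast markers. No doublet caller was run, and the mitochondrial limit of 10% removed 0 deep cells.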

Additional observations from a re-analysis of the deposited data

How the results depend on the processing

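The median and the summed log2 ratio of the synthesis genes were above 0 under every alternative run. The median log2 ratio was 0.84 with TMM and 0.85 with DESeq2 size factors, and 0.73 in cells of 10000 to 20000 UMIs. The log2 ratio of their summed UMIs was 0.63 in cells with at least 10000 UMIs, 0.81 with TMM, 0.82 with DESeq2, 0.59 with cells weighted equally, 0.59 after thinning, 0.57 without the 10% deepest cells, 0.67 in cells of 10000 to 20000 UMIs and 0.57 in cells at or below the median cell cycle sum. The number of members at least 1.5-fold higher ran from 10 to 16, and those with a log2 ratio of 0.322 or more from 15 to 20. Those at -0.322 or less numbered 2 with a minimum of 10000 UMIs, after thinning and in cells at or below the median cell cycle sum. The shares of all genes under these alternatives are not given here. With TMM or DESeq2 scaling, 0 members were at least 1.5-fold lower, because both factors move the median gene to about 0. All 132 alternatives of the 11 member ratios past 1.5-fold higher kept their sign. So did all 333 of the 37 folds past 2-fold between high-sum and low-sum cells of members other than Abca1 and Abcg1. Sizes were less steady, as 95 of the 132 and 251 of the 333 stayed within the 95% counting interval of the main value.

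Abcg1 was the least certain member, with a log2 fold between high-sum and low-sum cells of -1.19 to 0.33 in WT and -0.41 to 3.29 in humanized over the alternatives. Abca1 kept its sign in the ratio, fold and r under every alternative run. Its log2 ratio ran from -0.50 (DESeq2) to -1.10 (10000 to 20000 UMIs). Its r was -0.096 in WT and -0.073 in humanized without thinning, and -0.069 in WT at 10000 UMIs. Its log2 fold was -2.27 in WT in cells of 10000 to 20000 UMIs, -0.66 in WT without Fdps in the sum and -1.03 in humanized at 10000 UMIs. In CD3 cells under 5000 UMIs the summed log2 ratio was 0.18. The cause of these shifts was not tested. The window of 10000 to 20000 UMIs, cell cycle and fibroblast alternatives for the ratios, the sum without Fdps, the partial r and the CD3 cells under 5000 UMIs were chosen after seeing the data. No paired analysis was possible because each genotype had 1 library. Depth limits Abca1 and Abcg1 most, and arms of 1 library give no replicate error for any member.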

Other observations

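Genes outside the sterol lists that followed the synthesis sum included several abundant cytoskeletal genes. Lgals1, a secreted galectin, ranked first by the lower r of the libraries, with 0.37 in WT and 0.39 in humanized, and was 1.47-fold and 1.69-fold higher in high-sum cells. Tspo, an outer mitochondrial membrane protein that binds cholesterol, had r of 0.30 and 0.29 and was 1.52-fold and 1.53-fold higher. Tuba1a, a tubulin, had r of 0.29 and 0.35 and was 1.81-fold and 2.06-fold higher. Actb, Ppia, Clic1, Crip1, Tmsb10, S100a11 and Pfn1 had r from 0.24 to 0.28 in WT. Their folds were below those of Idi1 and Hmgcs1. Between the libraries Lgals1 had a log2 ratio of 0.35, Tuba1a of 0.38 and Tspo of 0.07.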
